A study of Canis lupus familiaris with 51 samples.

Results

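Among 51 dog tumours labelled hemangiosarcoma, 1 carries a tissue label that leaves its histogenic origin undetermined, and 267 of the 16382 genes measured (1.63%) stood out in that tumour alone. A gene was taken as a member when it had at least 10 FPKM in this tumour and at least 4 times the FPKM of each of the other 50. FPKM is the number of sequenced fragments of a gene scaled by the length of its transcript and by the size of the library. The tumour came from an intact female Golden Retriever aged 0.7 years. It is compared here with tumours of the spleen (n = 32, from dogs of 3.0 to 13.6 years), the heart (n = 11, 5.9 to 11.2 years) and the liver (n = 3, 9.6 to 10.9 years), and with 1 tumour each labelled cutaneous, metastatic tumor, abdominal mass and metastatic abdominal mass, from dogs of 10.7, 11.3, 8.7 and 9.0 years. The spleen tumours came from 16 female and 16 male dogs (20 neutered, 20 Golden Retrievers), the heart tumours from 3 females and 8 males (6 neutered, 6 Golden Retrievers) and the liver tumours from 3 females (2 neutered, 1 Golden Retriever). The cutaneous tumour came from a neutered female Bichon Frise, the metastatic tumour from a neutered female Golden Retriever, the abdominal mass from an intact male Boxer and the metastatic abdominal mass from a neutered female Lab/Husky Mix. Together the spleen, heart and liver tumours gave 28 neutered and 18 intact dogs, and 27 Golden Retrievers and 19 dogs of other breeds. The labels name no treatment and no normal tissue, so no baseline outside tumours was measured. Nothing in the labels says that each sample came from a separate dog, and p-values therefore measure the spread between these samples.

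Hemangiosarcoma is a cancer whose cells resemble those that line blood vessels. In dogs it arises mostly in the spleen and in the heart, often spreads before it is found, and is a disease of older animals. Tumours of this kind are supplied as pieces of tissue, so each library mixes tumour cells with blood, stroma and the cells of the host organ. A gene that is silent in most tumours and abundant in 1 can mark a cell type, a tissue or a state that the others lack. In bulk tissue, fewer cells of a type and less RNA per cell cannot be told apart.

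The identity of the 267 genes is known by Ensembl number only. None of the 16382 identifiers (0 matched) could be paired with a symbol in the table used here. That table lists no Ensembl numbers and belongs to another dog assembly, UU_Cfam_GSD_1.0. Markers of vessel lining and of muscle, skin, nerve, kidney, liver and blood cells could not be scored for this reason, and the label hemangiosarcoma was not checked against them. The genes are described by their levels and their order in this tumour, and 4 identifiers are printed by a fixed rule.

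The library of this tumour stood apart as a whole. Its median correlation with the other libraries, over log2(FPKM + 1) of all genes, was 0.815, the lowest of the 51 (0.827 to 0.952 in the others). Without the 267 members it was 0.853, against 0.825 to 0.951, and then the second lowest. Its summed FPKM of 405227 was the lowest in the series, its upper quartile of 24.18 FPKM was like that of other libraries, and 11379 genes reached 1 FPKM. Apart from the members, 875 genes of at least 10 FPKM in the median of the other tumours were lower than that median by a factor of 4 or more. This was the highest such number in the series, with 446 in spleen 20 next and a median of 51. In the upward direction 748 genes with at least 10 FPKM in this tumour, members included, reached 4 times the median of the other tumours. This was second to 877 in the metastatic tumour, counted in the same way. No replicate of the tumour exists in the series, so none of these values has a replicate check.

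The rule defined the members by their values in this tumour, and the values that follow describe the choice and test nothing. Their levels ran from 10.03 to 1553.49 FPKM, with a median of 43.47 and quartiles of 23.38 and 94.63. At least 50 FPKM was reached by 126 members and at least 100 FPKM by 59. The ratio to the highest other tumour had a median of 14.61 and a maximum of 817.41, and was at least 8 for 188 members, at least 16 for 128 and at least 100 for 45. At the edges of the rule, the smallest ratio kept was 4.016 and the largest left out 3.9997, while the lowest level kept was 10.03 FPKM and the highest left out 9.99. Below 10 FPKM, 93 further genes had the required ratio, and 54 genes with at least 10 FPKM had a ratio from 3 to 4.

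**Figure D1:**
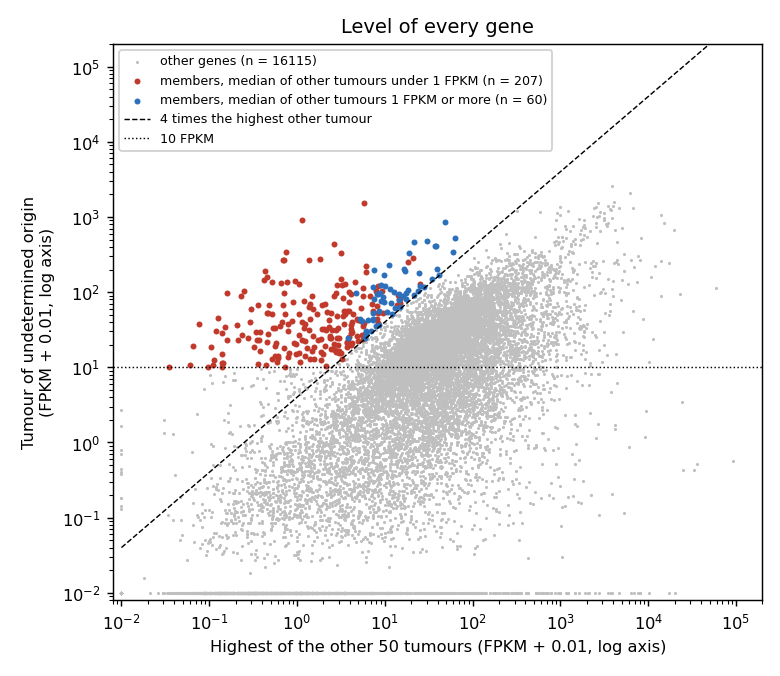
Level of every gene in the tumour of undetermined origin against its highest level in the other 50 tumours, both as FPKM + 0.01 on log axes. Grey points are the other genes, red points the 207 members whose median over the other tumours was under 1 FPKM and blue points the 60 with a higher median, and the members fill the corner above 10 FPKM and above the line of 4 times the highest other tumour.

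Together the members made up a measurable share of the summed FPKM of this tumour. They summed to 23147.8 FPKM, or 5.71% of the FPKM summed over all genes, against 0.0257% to 0.1097% in the other tumours (median 0.066%). The single most abundant member gave 6.71% of the sum of the members, the 10 most abundant gave 27.6% and the 30 most abundant 48.1%. 10 members were among the 100 most abundant genes of the tumour and 83 among the 1000 most abundant.

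ENSCAFG00000008715 was the most abundant member, at 1553.49 FPKM, and the 5th most abundant of all genes in this tumour. In the 32 spleen tumours it lay between 0 and 2.587 FPKM (median 0.137), in the 11 heart tumours between 0 and 1.279 (median 0.06), and in the 3 liver tumours at 0.035, 0.098 and 0.558. Its highest level elsewhere was 5.824 FPKM, in the metastatic abdominal mass, a ratio of 266.72 (721.44 after quantile normalization). It was listed at 0 in 15 of the other 50 tumours and reached 1 FPKM in 5, so no other tumour came near its level.

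ENSCAFG00000019783, second in abundance at 912.34 FPKM, had the largest ratio of all members, 817.41 (1413.01 after quantile normalization). It was listed at 0 in 33 of the other tumours, among them 19 of 32 spleen, 10 of 11 heart and 3 of 3 liver tumours. Its highest values were 1.116 FPKM in the metastatic abdominal mass and 1.014 FPKM in spleen 7. The steps between low FPKM values put about 16860 fragments behind its level in this tumour and 133.1 fragments behind all other tumours together. Counting error on the first number is 0.77%, and it covers counting only.

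**Figure D2:**
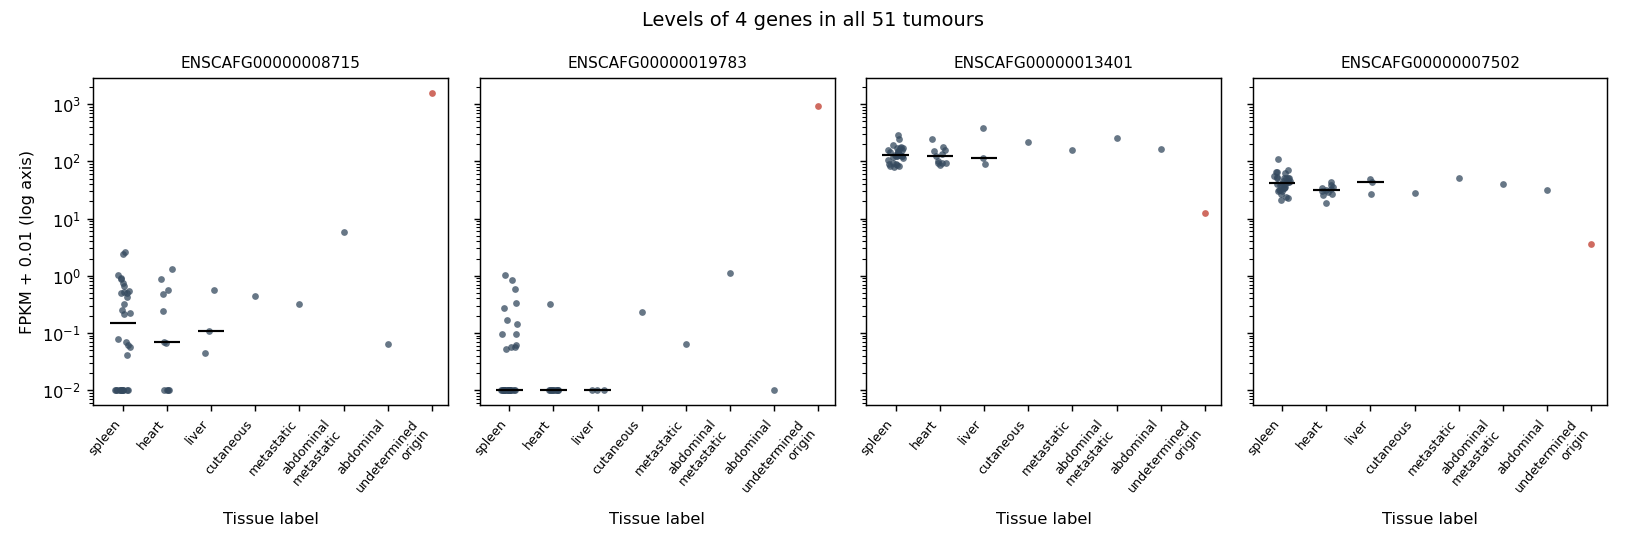
FPKM + 0.01 on a log axis in each of the 51 tumours, by tissue label, for the members ENSCAFG00000008715 and ENSCAFG00000019783 and for the low genes ENSCAFG00000013401 and ENSCAFG00000007502. Each point is 1 tumour and lines are medians of groups with more than 1 tumour, and the tumour of undetermined origin (red) lies above every other tumour for the first pair and below every other tumour for the second.

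Other abundant members differed in how far the rest of the tumours had them. The third in abundance had 853.19 FPKM here, 47.939 in spleen 14 and a median of 3.249 over the other tumours. The 4th had 517.5 FPKM here and was present throughout, with a median of 20.844 and a maximum of 62.759 in heart 9. By contrast, the 7th had 441.25 FPKM here and at most 2.609 elsewhere, and the 11th had 336.93 here and at most 0.747. Genes near 0 elsewhere and genes with a moderate level elsewhere therefore both occur among the most abundant members.

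The number of fragments behind a level could be solved for 135 of the 267 members, and ENSCAFG00000008715 was not among them. For these 135, the low values in the other tumours were whole multiples of 1 fragment (within 0.05 of a whole number for at least 90% of values), which gives the number of fragments in this tumour. It ran from 46 to 16860, with a median of 697, so that counting error alone was at most 14.774% and typically 3.79%. In the other 50 tumours together these members had a median of 198 fragments, and 109 of the 135 had fewer fragments there in sum than in this single library. Solving a member needed at least 5 low values above 0 in the other tumours, at most 20 times the step. Members without such values, and members whose low values did not meet the bound of 90%, were left out. These counts therefore do not stand for all 267. The relative depth of this library was 0.759, where the median library is 1 and the range is 0.526 to 2.135. If the smallest step was in truth several fragments, the numbers given are too low.

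In the other 50 tumours the members fell between absence and broad, low presence. 76 members stayed under 1 FPKM in each of the other tumours, and 72 more reached 1 FPKM in 1 to 5 of them. At the other end, 23 members reached 1 FPKM in 46 to 50 of the other tumours, and 10 did so in all 50. The median over the other tumours was under 1 FPKM for 207 members, among them 66 with a median of 0, and was at least 1 FPKM for 60 members. 6 members had a median of at least 10 FPKM. For members with a median above 0, the level in this tumour was from 7.5 to 15232 times that median (median 133.2). Of the 30 most abundant members, 16 had a median of at least 1 FPKM elsewhere, against 44 of the remaining 237. The cap that the rule sets on other tumours rises with the level here, so this contrast follows at least in part from the choice of genes.

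**Figure D3:**
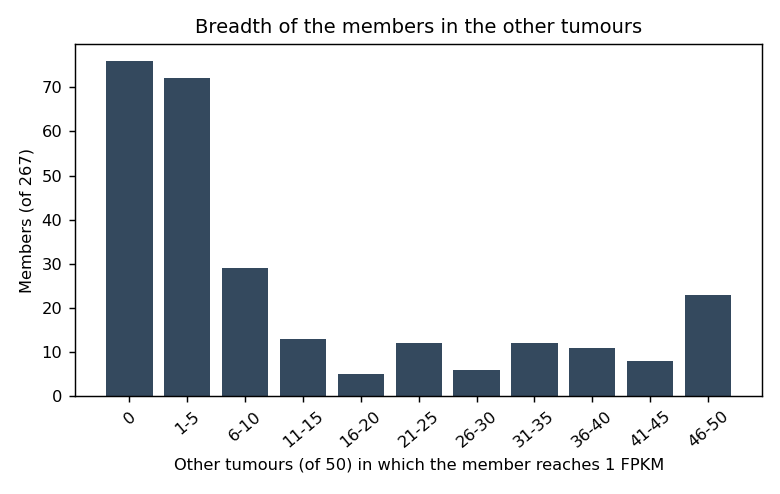
Number of the 267 members by the number of other tumours (of 50) in which they reached 1 FPKM. The tallest bars are at none (76 members) and at 1 to 5 tumours (72 members), and a smaller peak of 23 members lies at 46 to 50.

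The spleen, heart and liver tumours had the members at similar, low levels. At 1 FPKM or more there were 46 to 88 members among spleen tumours (median 68), 47 to 84 among heart tumours (median 70) and 52 to 70 among liver tumours (median 62). The summed level of the members was 233.1 to 516.2 FPKM in spleen (341.8 ± 67.86, SD, n = 32), 302.7 to 499.6 in heart (387.35 ± 70.94, SD, n = 11) and 319.1 to 382.3 in liver (347.87 ± 31.98, SD, n = 3). These ranges overlap between organs. Because the rule capped every other tumour at a level 4 times lower than here, a low level elsewhere follows from the choice of genes. The rule does not fix the order among the other tumours, but it dropped genes that were above the cap in any 1 of them. Without spleen 20 there were 290 members, so the order is shaped in part by the rule.

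**Figure D4:**
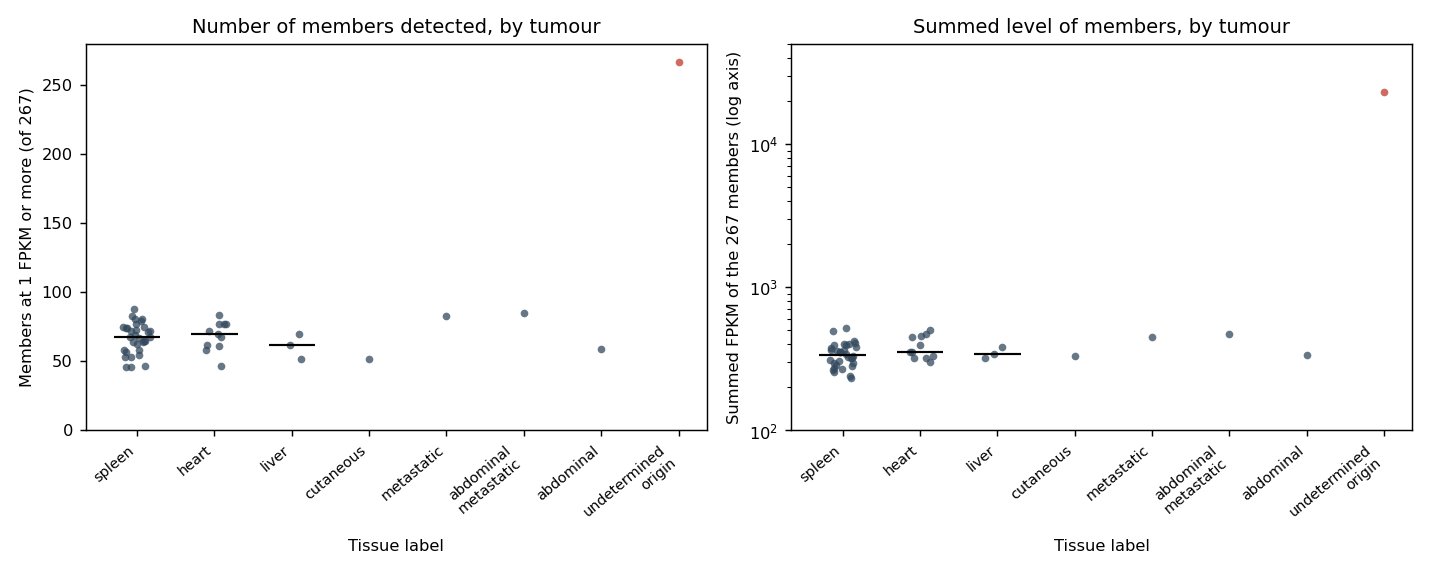
Number of members at 1 FPKM or more (left) and summed FPKM of the members on a log axis (right) in each tumour, by tissue label. Points are tumours and lines are medians of groups with more than 1 tumour, and the red point, fixed by the rule, stands at 267 members and 23147.8 FPKM against at most 88 members and 516.2 FPKM elsewhere.

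The tumour that came nearest varied from member to member. Spleen 20 held the highest other value for 27 members, the metastatic tumour and the metastatic abdominal mass for 17 each, spleen 14 for 16 and spleen 15 for 11. By organ, a spleen tumour was nearest for 167 members (62.5%), a heart tumour for 57 (21.3%) and a liver tumour for 8 (3.0%). Spleen tumours make up 64.0% of the other tumours, heart tumours 22% and liver tumours 6.0%. Over all 15586 genes above 0 in any of the other 50 tumours, the highest value lay in a spleen tumour for 63.2%, a heart tumour for 14% and a liver tumour for 8.4%. The metastatic tumour and the metastatic abdominal mass are each 2.0% of the other tumours and were each nearest for 6.4% of the members, against 8.8% and 3.6% of all genes. These shares were not tested against each other, and those of the members are shaped by the rule, which dropped genes high in any other tumour. Spleen 15, from a dog of 3.0 years, was the tumour of the youngest dog after this one.

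Tumours from dogs like this one in breed, sex and neuter status, or in young age, had summed member levels within the range of the remaining tumours. The 4 other tumours from intact female Golden Retrievers were heart 6 and spleens 6, 7 and 13, from dogs of 8.4 to 11.5 years. Their members summed to 319.2, 310.8, 306.9 and 270.8 FPKM, and 62, 58, 64 and 46 members reached 1 FPKM. The 5 tumours from other dogs under 7 years, spleens 8, 12 and 15 and hearts 1 and 2, had sums of 378.8, 352.0, 328.4, 352.6 and 322.7 FPKM. The highest level of ENSCAFG00000008715 among these 9 tumours was 0.907 FPKM. The age of the dog and the tumour category cannot be told apart for a single tumour.

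Correlations between the members over the other tumours were mostly weak. Over the 149 members that reached 1 FPKM in at least 3 of the other 50 tumours, the mean pairwise correlation of log2(FPKM + 1) was 0.051, and 1.91% of pairs exceeded 0.5. The same values over all 13006 genes that met this condition were 0.005 and 2.71%. These correlations share the 50 libraries and describe them only. Counting noise at low levels can pull correlations toward 0, so a shared pattern among the members could be missed. The set of all genes was not matched to the members in level. Average linkage at a correlation of 0.5 left 125 of the 149 alone or in groups under 5 genes. 4 small groups remained, with 8, 6, 5 and 5 genes. The group of 8 was highest in spleens 12, 3 and 20, at mean log2 levels of 3.48, 3.3 and 3.11 against 6.28 in the tumour of undetermined origin. A group of 5 was highest in hearts 10, 11 and 9, at 3.19, 2.88 and 2.87 against 6.22. The rule itself keeps such levels below those of the tumour of undetermined origin.

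Whether the members differ with site, age, sex, neuter status or breed was tested in the spleen, heart and liver tumours, which exclude the tumour that defined them. Linear models were fitted with limma to log2(FPKM + 1) of 12887 genes that reached 1 FPKM in 3 or more of the 46 tumours, and p-values were adjusted over all of these genes. 142 members passed this filter and 125 did not. A member could pass through 1 organ in which it was higher, so counts among the 142 describe them and are no support for a difference.

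Between heart and spleen tumours, 0 of the 142 members passed an adjusted p under 0.05 (limma), against a background of 0.155% of all genes tested, all of them higher in heart. At an unadjusted p under 0.05 there were 25 members (17.6%), 17 higher and 8 lower in heart, against 10.5% of all genes, with 5.87% higher and 4.66% lower. The median log2 difference was 0.06 over the members and 0.001 over all genes, and the members ranged from -0.84 to 0.98. The member with the smallest p, the 52nd in abundance and singled out after its values were seen, had 110.69 FPKM in the tumour of undetermined origin. It had 0.313 to 11.476 FPKM in heart (3.899 ± 3.262, SD, n = 11) and 0.105 to 6.78 FPKM in spleen (1.399 ± 1.514, SD, n = 32). The groups overlap. The log2 difference was 0.98 ± 0.27 (SE, limma adjusted p = 0.147). Without heart 2 it was 1.15 (limma adjusted p = 0.0462), in a fit that called 31 of 12866 genes. That was the only call of a member in the heart comparison among the settings tried. Without heart 10 the difference was 0.821 (limma adjusted p = 0.374), and without the CHAD titles 0.873 (limma adjusted p = 0.276).

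Liver tumours differed from spleen tumours in 0 members at the adjusted threshold (limma), as in 0% of all genes. Unadjusted p-values under 0.05 were found for 7 members (4.93%), 5 higher and 2 lower in liver, and for 6.04% of all genes, with 3.66% higher and 2.37% lower. The member with the smallest p, the 116th in abundance and singled out after its values were seen, had 53.09 FPKM in the tumour of undetermined origin. It was at 9.557, 0 and 5.42 FPKM in livers 1, 2 and 3. In the 32 spleen tumours it was at 0 to 3.286 FPKM, with a median of 0, and in the heart tumours at 0 to 1.783 FPKM. Livers 1 and 3 were above every spleen tumour and liver 2 was at 0. Its log2 difference was 1.60 ± 0.41 (SE, limma adjusted p = 0.167). Without liver 2 it was 2.61 (limma adjusted p = 0.000795), in a fit that called 17 of 12860 genes. Without liver 1 it was 0.913 (limma adjusted p = 0.752) and without liver 3 it was 1.271 (limma adjusted p = 0.586). The member was thus called only when liver 2 was left out.

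Age was of interest because the dog was the youngest of the series. limma called 0 members with a slope over age at diagnosis, against 0% of all genes. At an unadjusted p under 0.05 there were 8 members (5.63%), 7 of them with a negative slope and 1 with a positive slope, against 6.85% of all genes, with 3.33% negative and 3.52% positive. Slopes of the members ran from -0.18 to 0.14 log2 units per year, with a median of 0.004, the same as over all genes. The member with the smallest p, the 197th in abundance, had 0 to 2.871 FPKM in 18 dogs under 10 years and 0 to 0.287 FPKM in 28 older dogs, with a median of 0 in both. Its slope was -0.10 ± 0.029 per year (SE, limma adjusted p = 0.531). The youngest dog in the fit was 3.0 years old, so the fit does not reach the age of 0.7 years.

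Sex, neuter status and breed gave 0 called members each with limma, against 0%, 0% and 0.00776% of all genes. Between male and female dogs 13 members (9.15%) had an unadjusted p under 0.05, 4 higher and 9 lower in males, against 6.68% of all genes, with 2.22% higher and 4.46% lower. Between neutered and intact dogs it was 5 members (3.52%), 5 higher and 0 lower in neutered dogs, against 3.38% of all genes, with 1.75% higher and 1.63% lower. For Golden Retrievers against other breeds it was 3 members (2.11%), 2 higher and 1 lower, against 2.34% of all genes, with 1.04% higher and 1.3% lower. The 12th most abundant member, at 332.28 FPKM in the tumour of undetermined origin, had the smallest p for sex. It had 0.121 to 11.037 FPKM in 22 females (3.046 ± 2.864, SD) and 0.043 to 4.898 FPKM in 24 males (1.061 ± 1.048, SD), and the ranges overlap. The male minus female difference was -0.96 ± 0.24 on the log2 scale (SE, limma adjusted p = 0.572).

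**Figure D5:**
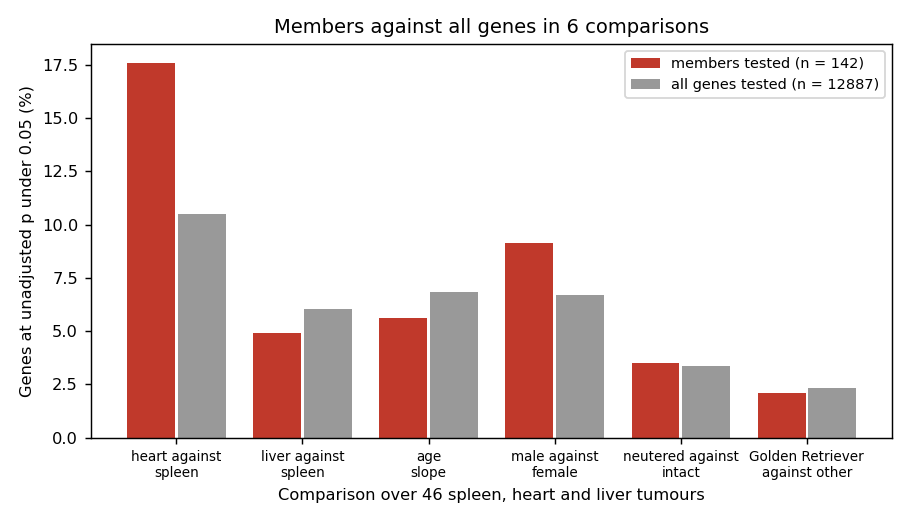
Percent of genes at an unadjusted p under 0.05 (limma) in 6 comparisons over the 46 spleen, heart and liver tumours, for the 142 members tested (red) and all 12887 genes tested (grey). Bars start at 0, and the members reach 17.6% against 10.5% in the heart comparison and lie between 2.11% and 9.15% in the other comparisons.

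The same rule turned round gave few genes, but it is narrower, since it needs 10 FPKM in each of the other 50 tumours. Its count is therefore not comparable with that of the members, and 875 genes were low here against the median of the other tumours. With at least 10 FPKM in each of the other 50 tumours and a level here at least 4 times lower than the lowest of them, 8 genes were low in the tumour of undetermined origin. Spleen 14 had 10 such genes and spleen 17 had 5, so a handful of low genes was not limited to this tumour. ENSCAFG00000013401 had 12.62 FPKM here and 78.17 to 377.96 FPKM elsewhere, with medians of 128.98 among spleen, 122.25 among heart and 112.5 among liver tumours. The lowest other tumour for it was spleen 19, at 6.19 times the level here. ENSCAFG00000007502 had 3.52 FPKM here and 18.8 to 108.24 FPKM elsewhere, the lowest in heart 2, a ratio of 5.34. With columns scaled to an equal sum its ratio was 3.19, under the bound of 4, so it was then no longer a low gene by this rule.

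Applied to each other tumour in turn, the rule for members found 156 genes in the metastatic tumour, 83 in spleen 20, 17 in spleen 14 and at most 9 in any other, with a median of 1. A set of genes high in a single tumour was thus largest, at 267, in the tumour of undetermined origin. With 1 tumour in the category, this ranking has no test.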

How the data were processed

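RNA from 51 tumours was sequenced with TruSeq libraries made from column-extracted total RNA, per the labels' protocols. The authors deposited 1 table of FPKM values, made with FastQC 0.11.2, TopHat 1.4.1 and Cuffdiff on the build CanFam3.1, per the submitters' processing notes. The annotation, strand setting, filters and scaling between libraries were not stated in the sources used here. Groups are the tissue labels, with tumours numbered in sample order, and no columns were left out. The members and the gene lists were chosen with earlier results of these data known. Models were fitted in limma 3.58.1 under R 4.3.3 (empirical Bayes with a mean trend, two-sided, Benjamini-Hochberg adjustment) on log2(FPKM + 1), which understates changes of low genes. Organ was a covariate for age, sex and breed, and organ and sex for neuter status. Relative depth was solved from 1581 low genes, of which 19.1% shared the main step in a median pair, and 99.69% of library pairs fell within 0.05 log2 units of the solution. The scripts were tested on simulated data. Printed identifiers are the member highest in level, the member with the largest ratio and the 2 lowest genes by ratio. Members with the smallest p were singled out after their values were seen. Pseudocount, filter, scaling, covariates and left-out tumours were varied.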

Additional observations from a re-analysis of the deposited data

Results flagged for a closer look

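The 4 tumours outside the comparisons of organs held some members at levels above each of the 46 tested tumours. This was so for 19 members in the metastatic abdominal mass and 17 in the metastatic tumour, of which 13 and 15 were at 1 FPKM or more. These are 7.12% and 6.37% of the members, against 3.75% and 8.54% of all genes above each of the 46 in the same libraries. For the abdominal mass it was 2 members (0.749%, against 1.1% of all genes) and for the cutaneous tumour 1 (0.375%, against 1.25%). The highest such value was 60.5 FPKM in the metastatic tumour, for a member at 345.03 FPKM in the tumour of undetermined origin and at most 29.47 FPKM in the 46. These labels have 1 tumour each, and no test was run on them.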

How the results depend on the processing

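The number of members was 314 with a minimum of 5 FPKM, 218 with 20 FPKM, 321 with a ratio of 3, 188 with a ratio of 8, 274 and 277 after median-ratio and quantile scaling, and 255 with FPKM + 1 in the ratio. In settings chosen after seeing the data it was 333 with equal column sums, 279 against the 46 spleen, heart and liver tumours alone, and 267 to 290 leaving out 1 other tumour, the most without spleen 20. After quantile scaling 259 of the 267 were kept, and the ratio of ENSCAFG00000008715 moved from 266.72 to 721.44 and that of ENSCAFG00000019783 from 817.41 to 1413.01. With equal sums the latter was 1051.6, and ENSCAFG00000007502, at 3.19, left the list of low genes. In 60 of 62 other fits of the 6 comparisons 0 members were called. Leaving out 1 heart tumour gave 0 to 1 members (1 without heart 2), and leaving out 1 liver tumour 0 to 1 (1 without liver 2). The sample titles of 6 of the 46 tested tumours, 5 of spleen and 1 of heart, start with CHAD. Those of the other tumours start with DHSA. The 20 genes called among all genes between heart and spleen became 11 with a pseudocount of 0.1, 1 with at least 1 FPKM in 10 tumours, 5 without the CHAD titles, 6 with covariates for age, sex, neutering and breed class, and 4 to 48 leaving out 1 heart tumour. Between liver and spleen the 0 genes became 3 without a filter and 1 to 17 leaving out 1 liver tumour. For breed the 1 gene became 0 when CHAD titles were dropped and 0 among spleen tumours alone. The cause was not tested. No paired analysis was possible because the labels do not say which samples, if any, came from the same dog. Without a second library of this tumour, its depth limits counting error only.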
